A study of Mus musculus with 10 samples.

Results

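Kidney and liver were compared directly, as 2 of the 10 mouse tissues measured on a splicing array. The samples were taken by their tissue labels. All 3126 alternative splicing events on the array entered the comparison of transcript level, and 2233 of them, with both flanking exons above the lowest 25% of probe values in both tissues, entered the comparison of exon inclusion. The kidney and liver samples were each 1 pool of total RNA from mice of the outbred CD1 strain, and so were the other 8 (brain, heart, intestine, lung, muscle, salivary, spleen and testis). The labels do not give the number of animals in a pool, their age or their sex. With no replicates, no difference below carries an error or a test. Each describes these 2 pools, with a precision limited by the number of arrays.

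An alternative exon is spliced into some transcripts of a gene and left out of others, and the choice often varies between tissues. Kidney and liver are both organs of transport and metabolism whose bulk is epithelial: tubule cells in kidney and hepatocytes in liver. They share many metabolic and transporter genes, while the plasma proteins made by hepatocytes and the channels and transporters of the nephron set them apart. In a bulk tissue sample, fewer cells of a type and less RNA per cell cannot be told apart. The value table numbers its events (Ben followed by a number) and pairs none of them with a gene, so the tissues could not be checked against marker genes, and events are called by number here.

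Each event had 7 probes. C1 and C2 lie in the exons on either side of the alternative exon and A in the alternative exon itself. C1:A and A:C2 cross the junctions made when the exon is included, and C1:C2 the junction made when it is skipped. What the probe called INT measures is not given in the sources used here. Its median was 1.41 in kidney and 1.11 in liver, low against the array medians of 2.17 and 2.10, and it served as a mark for weak signal. Values are in units of the deposited, compressed scale, whose base is not stated, so differences are in units and not in folds. After each array was centred on its median, an event's level was taken as the average of its C1 and C2 values. The average of its inclusion junctions, less C1:C2, gave its junction index, and A less the level gave its body index. Higher indices go with more inclusion of the exon. All differences are kidney minus liver, so a negative one is higher in liver.

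The arrays differed in spread. Probe values had an SD of 1.25 units in kidney and 1.43 in liver, and 0.635% of probes stood at 0 in kidney against 3.16% in liver. Among the fifth of events with the lowest mean level, the median level difference was 0.18, and 65.2% of events were higher in kidney. Among the fifth with the highest mean level it was -0.27, and 32.0% were higher in kidney. Quantile normalization brought these medians to -0.01 and 0.01. Weak events thus leaned to kidney and strong ones to liver on the main scale, and the part of this in the calls below was not tested beyond that alternative.

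Most events had like levels in both tissues: 2742 of 3126 (87.7%) differed by less than 1 unit. A level call required a difference of at least 2.08 units, which is 4 robust SDs (the scaled median absolute deviation, 0.521 units) of all level differences. By this rule 49 events, 1.57% of those compared, were higher in kidney, and 45 events, 1.44%, were higher in liver. The median difference was 2.62 units among the kidney calls and -3.11 among the liver calls. The largest difference was 4.95 units toward kidney and 6.19 toward liver. At the threshold, the smallest called differences were 2.14 and 2.13 units, and the largest not called were 2.08 and 2.07. Kidney calls reached less far, and more of them had a weak lower side: a flanking probe of liver was at or under the INT median in 28 of 49, against 17 of 45 with such a flank of kidney among the liver calls. With both flanks above that mark in both tissues, 21 kidney and 28 liver calls remained.

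**Figure D1:**
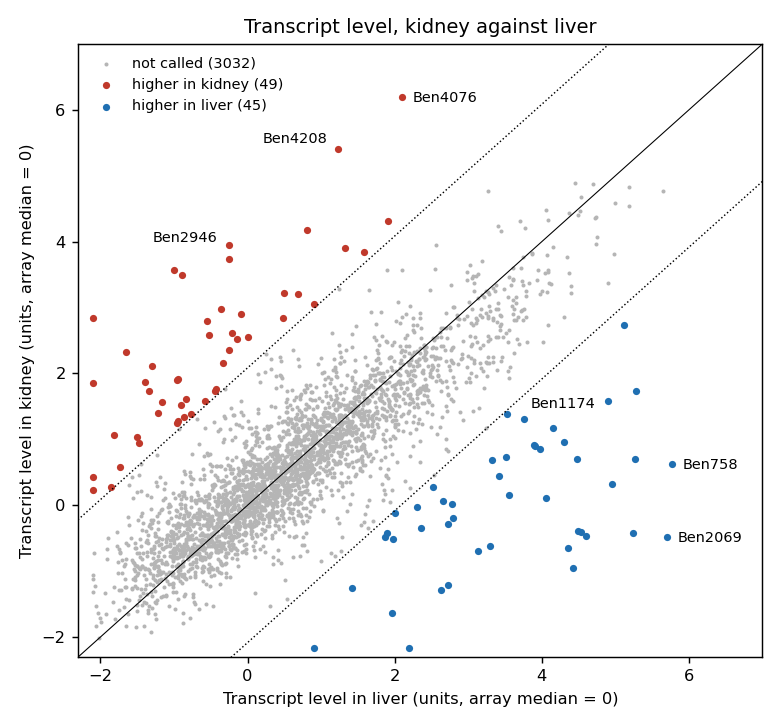
Transcript level of each of 3126 events in liver (horizontal axis) and kidney (vertical axis), in units with the array median at 0, 1 pooled sample per tissue; the solid line marks equal levels and the dotted lines the threshold of 2.08 units. The 49 kidney calls lie above the band and the 45 liver calls below it, and the liver calls reach further from the line.

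All 6 exon and junction probes differed in the same direction in 45 of the 49 kidney calls and 36 of the 45 liver calls, beside 39.3% of all events. All 6 passed the level threshold in 16 kidney and 22 liver calls. C1 and C2 each passed the level threshold alone in 39 calls of either direction. Among the kidney calls the median difference was 2.37 units for the A probe and 2.13 for the C1:C2 junction. Among the liver calls these were -2.96 and -2.53. The INT probe followed far less, with median differences of 0.61 and -0.14 beside 0.13 over all events.

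Ben2069 was the largest level call measured on both sides. In liver its C1 was 7.61, its A 7.96 and its C2 8.0, while in kidney they were 1.65, 1.84 and 1.72. The junction probes went the same way, with C1:A at 7.47 in liver and 1.28 in kidney, and A:C2 at 7.72 and 1.36. The level of -0.48 in kidney lay inside the range of the other 8 tissues, from -2.18 in brain to -0.13 in testis, and liver at 5.71 stood alone above them. Liver alone thus had a high level of Ben2069, though single probes were high elsewhere, such as C2 in testis at 3.85 and A:C2 in spleen at 4.28. Its kidney C1:A of 1.28, A:C2 of 1.36 and C1:C2 of 0.62 were all under the INT median. The junction index of this event thus has no firm value in kidney.

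Ben758 had the next largest liver call, -5.13 units. Its level was 5.76 in liver and 0.63 in kidney. The other 8 tissues ran from 0.13 in brain to 1.79 in spleen, so kidney sat among them and liver far above. Its body index hardly differed, -0.19, and its junction index differed by 0.80, so exon inclusion was not called. The junction probes C1:A and C1:C2 were also high in testis, 6.51 and 6.23, where the flanking exons were not (C1 3.14 and C2 2.63).

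Toward kidney, Ben2946 and Ben4208 had the largest calls measured on both sides. Ben2946 had a level of 3.94 in kidney and -0.25 in liver, a difference of 4.20. Intestine followed kidney closely at 3.75, and the other 7 tissues lay between -0.14 and 0.72. Kidney and intestine thus shared a high level of Ben2946 that liver lacked. Its flanks were 5.72 and 6.51 in kidney against 2.02 and 1.68 in liver, and its A probe was at 1.17 and 1.19, under the kidney INT median and just above the liver one.

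Ben4208 had a level of 5.41 in kidney and 1.23 in liver, 4.18 units apart. Liver was the lowest of the 10 tissues and kidney the highest, with heart next at 4.44 and muscle at 3.26. All 6 exon and junction probes of Ben4208 were above the INT median in both tissues and differed by 4.06 to 4.41 units. Its junction index differed by -0.31 and its body index by 0.025, so the transcript differed in amount with little difference in the exon.

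**Figure D2:**
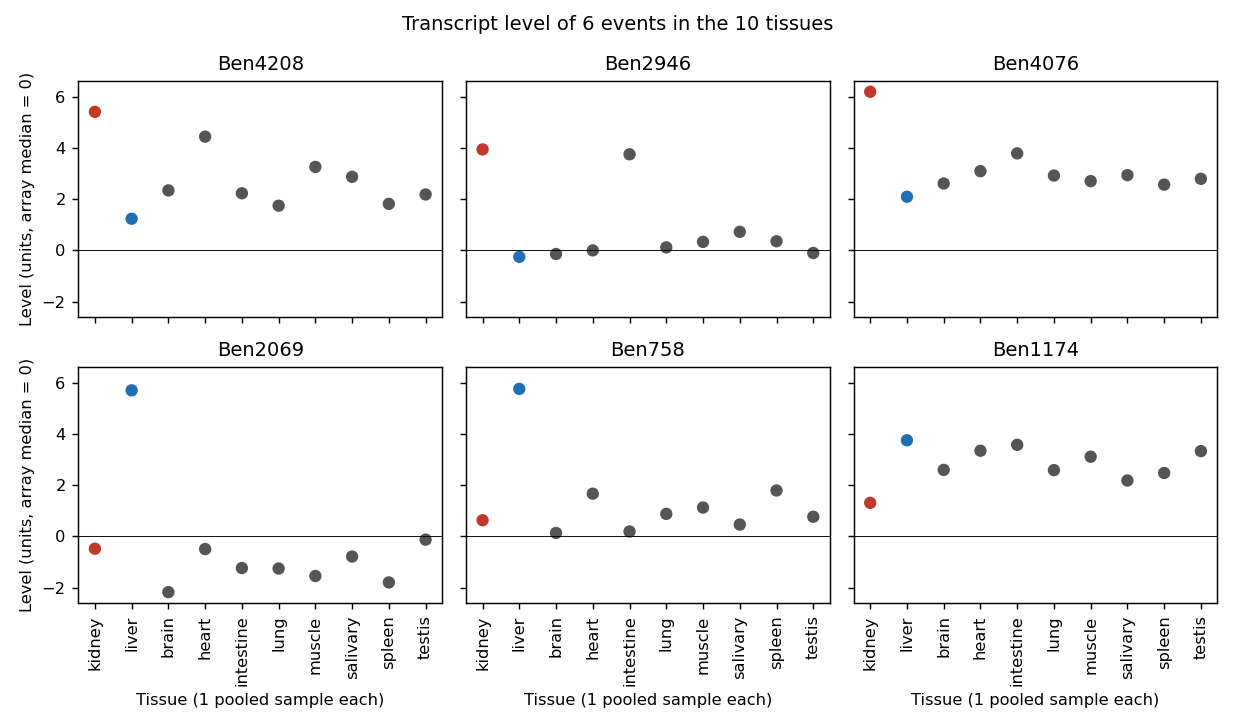
Transcript level (units, array median at 0) of 6 events in the 10 tissues, 1 pooled sample each, with kidney in red, liver in blue and the others in grey. Liver stands alone above all other tissues for Ben2069 and Ben758. Kidney and liver lie at opposite ends for Ben2946, where intestine lies beside kidney, and for Ben4208, Ben4076 and Ben1174.

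The other 8 tissues told which side of the pair differed. Over all events, liver alone lay outside their range in 515 (16.5%) and kidney alone in 286 (9.15%). Among the 45 liver calls, liver alone lay outside in 32, and liver was above all 8 others in 38, beside 17.6% of all events. In 29 of the 45, each of the 8 others was nearer to kidney than to liver. By contrast, kidney alone lay outside in 2. A liver call itself selects for a high liver or a low kidney value, so the share over all events is no like background. Within the liver calls, it was mostly liver, not kidney, that stood apart.

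The kidney calls were more mixed. Kidney was above all 8 others in 33 of 49, beside 15.2% of all events, and liver was below all 8 others in 15, beside 14.1%. A kidney call likewise selects for a high kidney or a low liver value, so these shares are no like background either. Kidney alone lay outside in 22, liver alone in 7, and both at opposite ends in 8, beside 18 such events of 3126 overall. Each of the 8 others was nearer to liver in 14 of the 49.

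A few calls went against this pattern and were chosen after their values were seen. Among liver calls kidney alone lay outside the range, on the low side, for Ben1322 and Ben3434. All 7 probes of Ben3434 were 0 in kidney, so its side is uncertain. For Ben1174 the pair lay at opposite ends. Its level was 3.75 in liver, just above intestine at 3.58, and 1.31 in kidney, below salivary at 2.18. Kidney departed more than liver did in Ben1174, and under quantile normalization its level difference of -1.78 was no longer past the threshold of 1.89.

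Some calls rest on an event listed at 0 throughout. All 7 probes of Ben3415, Ben1694, Ben2695 and Ben705 were 0 in liver, and all 7 of Ben3434 and Ben4077 were 0 in kidney. All 6 of these events were level calls, and none was an exon call. The table does not say whether such a 0 is a low measurement or no value. Ben3415, the largest kidney difference of all at 4.95, had C1 at 4.67, A at 5.09 and C2 at 5.36 in kidney. Without the 6 events, 45 kidney and 43 liver level calls stood. The counts of sides above include these 6 events.

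Exon inclusion was also alike in most events: in 2046 of 2233 (91.6%) the junction index differed by less than 1 unit. An exon call required a difference of at least 1.66 units in the junction index, which is 4 robust SDs of 0.416 units, and a body index difference of the same sign. By this rule 23 exons, 1.03% of those compared, were more included in kidney, and 13 exons, 0.582%, more in liver. The median junction index difference was 2.06 in the former and -2.01 in the latter. Another 10 events past the junction threshold toward kidney and 2 toward liver had a body index of the opposite sign and were not called. The largest of these, toward kidney, differed by 3.38 in junction index, more than any of the 23 kidney calls, which reached 3.02. Over the 2233 events, the junction and body index differences had an r of 0.35, given as a description, since both indices come from the same 2 arrays.

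**Figure D3:**
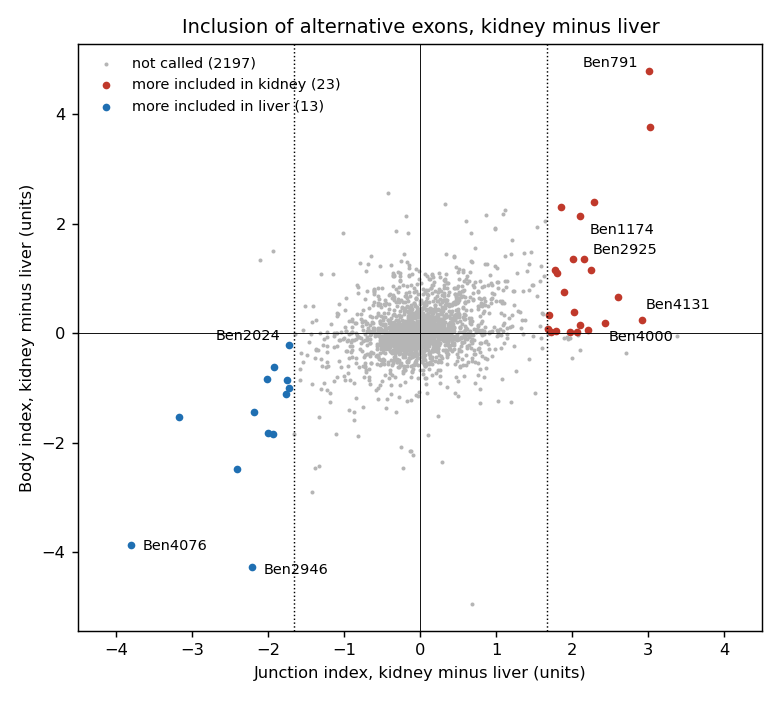
Kidney minus liver difference in junction index (horizontal axis) and body index (vertical axis), in units, for 2233 events, 1 pooled sample per tissue; dotted lines mark the junction threshold of 1.66 units. Of the 23 exons called toward kidney, 10 lie within 1 robust SD (0.353 units) of a body index difference of 0, against 1 of the 13 called toward liver.

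In most calls of both directions, C1:C2 contributed more to the junction index difference than the mean of the inclusion junctions. This held in 18 of the 23 kidney exons and 10 of the 13 liver exons. C1:C2 was lower in kidney in all 23 exons more included in kidney, by a median of -2.02, while C1:A and A:C2 differed by medians of -0.03 and 0.38. In 9 of the 23 both inclusion junctions were higher in kidney. In the 13 exons more included in liver, C1:C2 was higher in kidney in 12, with a median of 2.07, and both inclusion junctions were higher in liver in 4. The level was itself higher in kidney in 11 of these 13, by a median of 1.53 over the 13. Likewise the level was higher in liver in 18 of the 23 kidney exons, with a median difference of -0.79 over the 23. Relative to the level, C1:C2 passed 1 robust SD toward inclusion in 17 of the 23 kidney exons, and A, C1:A and A:C2 in 13 each. In the 13 liver exons C1:C2 did so in 5, against 12 for A, 11 for C1:A and 12 for A:C2. Measured this way, the exon and inclusion probes passed more often than the skipping junction in the liver calls. The call rule uses these same probes and requires the sign of A less the level, so it favours such counts. Without the level subtracted, A was higher in kidney in 11 of the 23 kidney exons and higher in liver in 7 of the 13 liver exons. Weak probes were common: at least 1 of the 6 exon and junction probes was at or under the INT median in kidney or liver in 11 of the 23 and in 12 of the 13. Calls were made in 2.31% of the compared events with such a probe and in 1.05% of those without.

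Ben791 had the largest exon call measured on both sides, with all 6 probes above the INT median. Its A probe was 5.30 in kidney and 1.60 in liver, C1:A was 5.03 and 2.73, and A:C2 was 4.53 and 2.49. The exon was higher in kidney by all 3 of these probes although the flanks were higher in liver, C1 at 5.27 against 3.82 and C2 at 7.72 against 6.97. The junction index differed by 3.01 and the body index by 4.80. Among the other 8 tissues only intestine resembled kidney, with A at 3.71 and a junction index of -1.58, equal to that of kidney to 2 decimals. Liver, with a junction index of -4.59, lay among the other 7, which ran from -5.09 in heart to -2.59 in salivary. By the body index the side was the other one. There liver at -4.89 lay below all 8 others, which ran from -2.92 in testis to 0.08 in intestine. Kidney at -0.10 lay inside that range. Ben791 is thus an exon with high signal in kidney and intestine in a transcript strongest in liver.

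Ben2925 had the clearest exon call at a like level, which differed by -0.31. In kidney A was 3.50, C1:A 2.71, A:C2 3.42 and C1:C2 2.41. In liver they were 2.39, 1.43, 2.30 and 3.36. All 4 probes moved toward inclusion in kidney, and all 6 were above the INT median. The junction index of 0.66 in kidney was above the range of the other 8 tissues, from -3.26 in testis to -0.39 in salivary, while liver at -1.50 lay inside. Salivary was nearest to kidney, with A at 3.15.

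Of the 7 kidney exon calls at a like level, 4 rested on the C1:C2 probe alone. Ben4131 had the largest such difference, 2.92, with a body index difference of 0.24. Its C1:C2 was 6.02 in liver, 2.72 in kidney and 2.49 to 3.23 in the other 8 tissues. Its other 5 exon and junction probes differed between kidney and liver by -0.15 to -0.72. Ben4131 was thus set apart by 1 liver probe value.

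Ben4000 and Ben854, named after their values were seen because kidney and liver lay at opposite ends, had the reverse form. C1:C2 of Ben4000 was 1.07 in kidney, 4.08 in liver and 1.59 to 4.92 elsewhere, while its C1, A, C2, C1:A and A:C2 differed by -0.43 to -0.73. The kidney value was under the INT median, so the junction index of Ben4000 has no firm value in kidney. C1:C2 of Ben854 was 1.97 in kidney, 3.92 in liver and 2.11 to 5.78 elsewhere, with the level only 0.015 units apart. Both had body index differences below 0.353, at 0.19 and 0.16. In these events kidney had a weak skipping junction for the transcript's level, with little difference in the exon's own probe.

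Counted over the calls, some had only C1:C2 past 1 robust SD toward inclusion, relative to level, and not A, C1:A or A:C2. These were 8 of the 23 kidney exons and 1 of the 13 liver exons. All 4 probes passed 1 robust SD that way in 5 of the 23 (Ben21, Ben2925, Ben2970, Ben3683 and Ben727). They did so in 3 of the 13 liver exons (Ben1751, Ben2885 and Ben3142). A probe at or under the INT median was present in 4 of these 5 kidney exons, all but Ben2925, and in all 3 liver exons. A itself was lower in kidney than in liver in Ben2970 (0.47 against 2.38) and Ben727 (1.32 against 2.89). Their level differences were -2.64 and -2.79. In Ben21, Ben2925 and Ben3683 A was higher in kidney. In the liver exons A was 1.68 in liver against 1.36 in kidney for Ben2885, 0.56 against 0.79 for Ben1751 and 1.49 against 1.53 for Ben3142. These names were taken after the values were seen.

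**Figure D4:**
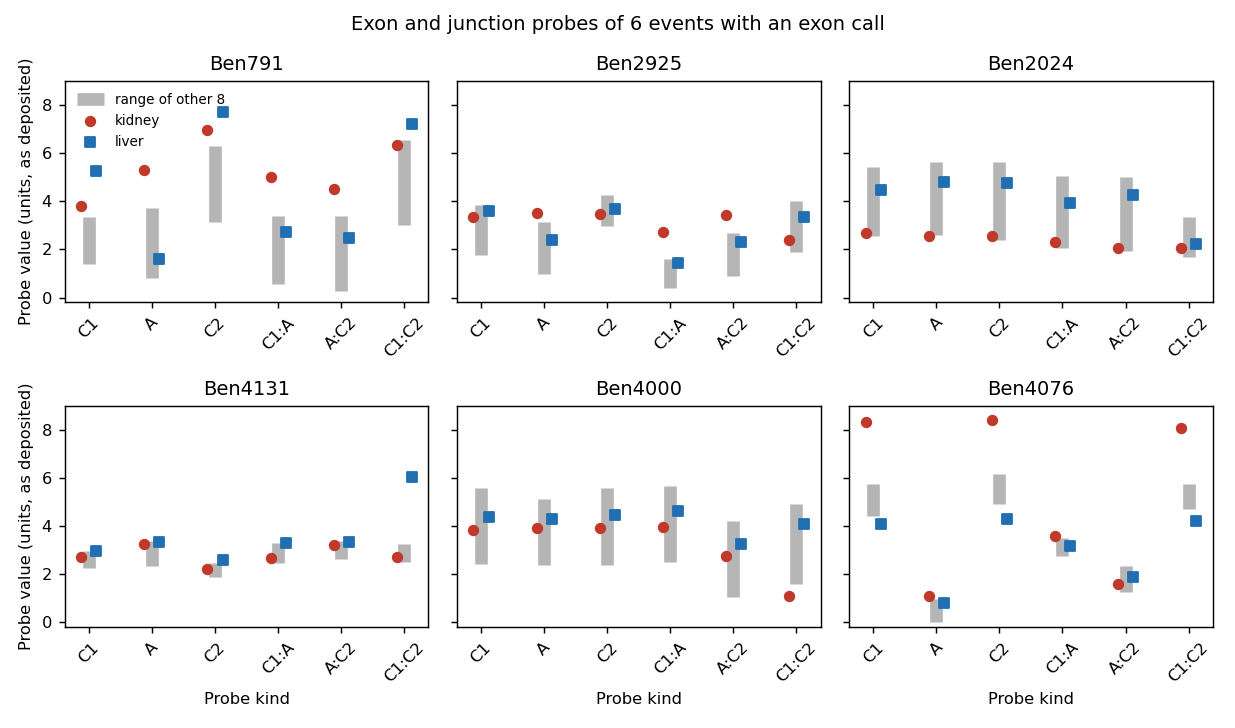
Values of the 6 exon and junction probes (units, as deposited) of 6 exon calls in kidney (red circles) and liver (blue squares), 1 pooled sample each, with the range of the other 8 tissues as grey bars. A, C1:A and A:C2 are higher in kidney for Ben791 and Ben2925, a lone C1:C2 value stands out in liver for Ben4131 and in kidney for Ben4000, and only C1, C2 and C1:C2 are high in kidney for Ben4076.

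Toward liver, Ben2024 was the only exon call with all 6 probes above the INT median. Its junction index was 1.85 in liver and 0.13 in kidney, a difference of -1.72, and its body index differed by -0.22. Relative to level, only C1:C2 passed 1 robust SD toward inclusion, and A, C1:A and A:C2 did not. All of its exon-body probes were higher in liver (C1 4.48, A 4.79 and C2 4.78 against 2.70, 2.56 and 2.56 in kidney), whereas C1:C2 was 2.23 and 2.08. Intestine at 1.83 and spleen at 1.65 had indices near that of liver, and they also had the highest levels, 3.28 and 3.43. Muscle, salivary, heart and testis lay near kidney with low levels. Under quantile normalization the difference was -1.40, short of the threshold of 1.57.

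Ben4076, named after its values were seen, had the largest exon difference of all, -3.80. Its flanks were 8.31 and 8.42 in kidney against 4.09 and 4.30 in liver, and C1:C2 was 8.07 against 4.19. The probes of the exon scarcely followed: A was 1.08 and 0.78, C1:A 3.60 and 3.18, and A:C2 1.61 and 1.88. A lay under the INT median in both tissues. Kidney thus had far more of the Ben4076 transcript, and the difference lay in the flanks and the skipping junction. Its level in kidney, 6.20, exceeded all other tissues, which reached 3.79 in intestine.

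Ben4076 was also 1 of 8 events with both a level and an exon call. An exon call was made in 8 of the 45 level-called events that could be compared (17.8%) and in 28 of the 2188 others (1.28%). In all 8 the exon was less included where the transcript was higher. Ben1174, Ben1800, Ben2970 and Ben727 were higher in liver, and Ben2011, Ben2946, Ben4076 and Ben446 in kidney. The unanimous count depends on the threshold: Ben2024, with a level difference of -2.07, fell just short of the 2.08 units required. Its exon was more included in liver, where its transcript was higher. At least 1 of the 6 probes was at or under the INT median in 7 of the 8, all but Ben1174, whose exon call was lost under quantile normalization (1.37 against a threshold of 1.57). With the columns as deposited the direction held for 7 of 8 such events, and after quantile normalization for 5 of 6. Over all 36 exon calls, junction index and level differed in opposite directions in 29 (80.6%), beside 1082 of 2233 compared events (48.5%). That held for 20 of the 23 exon calls with a probe at or under the INT median and for 9 of the 13 without one. An exon call also required a body index difference of the same sign, which the 2233 compared events did not have to meet. The level is subtracted in that index, so the call rule itself can favour exons whose level differs the other way. The parts of the call rule and of weak signal in these counts were not tested.

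The same count was made for exon inclusion. Over the 2233 compared events, liver alone lay outside the range of the other 8 tissues in 324 (14.5%) and kidney alone in 269 (12%). Among the 23 exons more included in kidney, kidney was above all others in 13 and liver below all others in 12, beside 19.1% and 10.3% of compared events. Kidney alone lay outside in 7, liver alone in 6, and both at the same end in 6, beside 15.9% of compared events. Among the 13 exons more included in liver, kidney was below all others in 9, beside 9.67% of compared events. Liver was above all others in 4 of the 13 (30.8%), not far from its share of 21.0% over compared events. Liver alone lay outside only for Ben2024 and Ben4285. An exon call also selects for indices toward these ends, so the shares over compared events are no like background. Under quantile normalization the exon calls of both directions with kidney alone outside went from 14 to 22, and those with liver alone from 8 to 5.

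**Figure D5:**
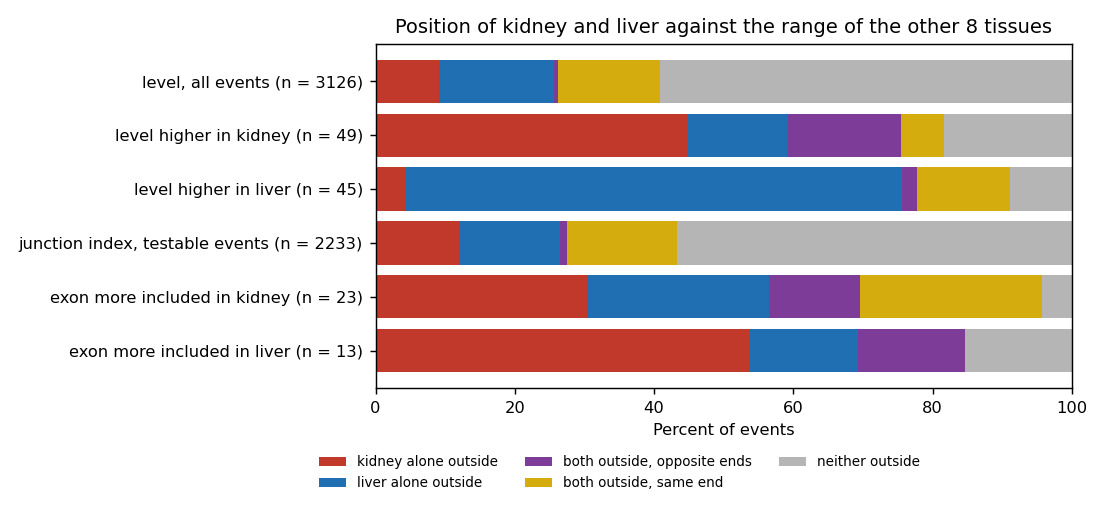
Percent of events (horizontal axis) in which kidney alone, liver alone, both or neither lay outside the range of the other 8 tissues, for level and for the junction index, over all compared events and over the calls of each direction. Liver alone takes 32 of the 45 liver level calls, while kidney alone takes 7 of the 13 exons more included in liver.

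The exons set at opposite ends of the 10 tissues were few and were named after their values were seen. Toward kidney they were Ben1548, Ben4000 and Ben854, and toward liver Ben3380 and Ben4076. Ben1548 had a junction index of 2.13 in kidney and 0.15 in liver, with the other 8 between 0.55 and 1.74. Its C1:C2 was 4.52 in liver and 2.08 in kidney, although its C1:A was also higher in liver, 5.12 against 3.45. Its inclusion junctions thus disagreed, and its body index differed by only 0.016. Under quantile normalization the sign of the body index difference turned and Ben1548 was no longer called. Ben3380 had an index of -2.15 in kidney, close to heart at -2.09, and -0.13 in liver, above salivary and testis, both at -0.59. Its A probe was under the INT median in both tissues, 1.35 in kidney and 0.28 in liver.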

How the data were processed

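Splicing arrays of 10 pooled tissue samples were used as 1 table of 21882 probe values per sample. The authors deposited each value as a score on a compressed scale of 0 or more. Its base, the background correction, any between-array normalization and the meaning of a 0 were not stated in the sources used. All 10 columns matched a sample title, and the number of unused sample columns was 0. After median centring of every array, level, junction index and body index were computed per event. Calls took 4 robust SDs (median absolute deviation times 1.4826) over all 3126 events. No test was run, since each tissue had 1 sample. For each comparison and direction, at most 2 events measured on both sides (probes above their array's INT median) were named by size: level calls, exon calls, and exon calls with levels within 1 robust SD. Other names are marked as chosen after values were seen. The comparison and its rules were chosen with earlier results of these data known. The call rules were first tested on simulated data, with changes placed only in events without weak exon or junction probes. Calls with weak probes were thus not covered by it. Alternatives were other scalings, thresholds, filters, indices and sets of other tissues. Figures were drawn with matplotlib 3.10.9, and values computed with pandas 2.3.3 and numpy 2.4.6 under Python 3.11.15.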

Additional observations from a re-analysis of the deposited data

How the results depend on the processing

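With 1 pooled sample per tissue, counts past a threshold describe these arrays, and differences of weak probes are limited by signal near the INT level. No paired analysis was possible because kidney and liver have 1 sample each and nothing was tested. Main counts were 49 kidney and 45 liver level calls, and 23 kidney and 13 liver exon calls. A threshold of 3 robust SDs gave 83, 77, 47 and 38, and 6 robust SDs gave 14, 22, 4 and 2. Exon calls with junctions above the 95th percentile of INT numbered 11 and 0, and toward liver they numbered 21 with no filter on flanks. When the body index was used for calling, 22 exons were called toward liver, and 5 of 21 kidney and 7 of these 22 liver calls were shared with the main calls. Chosen after seeing the data, flanks above the INT median left 21 and 28 level calls, 6 probes above it left 12 and 1 exon calls, and a body index past 1 robust SD left 13 kidney exons. Stricter filters lower counts by construction. Quantile normalization gave 54, 44, 20 and 17 calls, of which 49, 40, 15 and 12 were also main calls. It moved the exon calls with kidney alone outside the range from 14 to 22, and with liver alone from 8 to 5. The cause was not tested. Leaving out each other tissue in turn gave 22 to 26 level calls with kidney alone outside (24 in the main setting), 37 to 41 with liver alone (39), and 11 to 14 and 6 to 8 exon calls. In all, 69 of the recomputed counts stayed within 1.5 times the main one and 19 did not. That tally compares counts and not the events called. The 21 kidney calls by body index fell within it, though 5 were main calls. So did the 46 kidney level calls from C2 alone, of which 35 were main calls.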

Other observations

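The INT probes, which entered no call, differed between kidney and liver by at least 2.08 units in 21 events toward kidney and 4 toward liver. Their median difference was 0.13 units after centring, against -0.02 for C1 and 0.003 for A. The flanking exons of 1 event sometimes parted. C1 was higher in kidney and C2 higher in liver, each by over 1 robust SD of its probe kind, in 18 events, and the reverse held in 12 events. The 6 exon and junction probes were above the INT median in both tissues in 1247 of 3126 events, and both flanks in 2277.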
